A study of Mus musculus with 9 samples.

Results

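Coagulation and fibrinolysis genes code for the plasma proteins and cell surface regulators that form and remove blood clots. They were taken as a list of 33 mouse genes, and each listed gene was kept if the array had a probe set annotated with exactly that symbol. Of the 33 genes, 31 were measured, among 19938 genes with a single symbol on the array. The only probe set for Klkb1 (plasma prekallikrein) is annotated with another gene too, and no probe set listed here carries Cpb2 (the fibrinolysis inhibitor TAFI), so neither has a value. RNA of whole liver was put on 9 Affymetrix Mouse Gene 1.0 ST arrays, 3 per group, which the labels call biological replicates. OB-TUDCA mice were ob/ob mice, which lack working leptin, given tauroursodeoxycholic acid (TUDCA, a taurine-conjugated bile acid) by gavage at 500 mg/kg, 2 times a day for 3 weeks. OB-control mice were ob/ob mice given tap water in the same way, and N-control mice were lean C57BL/6J control littermates given tap water. All mice were male, were bought at 6 weeks of age, ate normal chow and were killed after 8 h without food. The study kept 6 mice per group, and the labels do not say which of them each array covers.

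Clotting runs through 2 arms that meet. In the contact pathway, factor XII, prekallikrein and high molecular weight kininogen activate factor XI, which activates factor IX. In the tissue factor pathway, factor VII bound to tissue factor activates factors IX and X. With their cofactors, factors VIII and V, these enzymes produce thrombin, which turns fibrinogen into fibrin, and factor XIII links the fibrin strands. Antithrombin, heparin cofactor II, the protein C system and tissue factor pathway inhibitor hold the cascade back, and plasmin dissolves the clot. Hepatocytes secrete most of these proteins, and several carry glutamates that a vitamin K-dependent enzyme modifies. Factor VIII, von Willebrand factor and thrombomodulin are known mainly as endothelial products.

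Values are log2 signals as the authors deposited them, after the robust multi-array average (RMA) method. A difference of 1 is a doubling of signal. Differences were tested two-sided with limma over all 19938 genes, with Benjamini-Hochberg adjustment and a threshold of 0.05 on the adjusted p. The 3 comparisons share arrays and are not independent of each other. With 3 arrays against 3, an exact permutation test of one gene could not give a p below 0.1.

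In N-control replicate 2 the 20 measured pancreatic acinar genes were all higher than on any other array, with a mean log2 signal of 10.29 on that array, against 3.90 to 4.32 on the other 8 arrays. In OB-control replicate 2 the hepatocyte-secreted coagulation genes were high for their group, as given below. The 9 hepatocyte markers averaged 12.44 to 12.51 in OB-TUDCA, 12.43 to 12.56 in OB-control and 12.59 to 12.60 in N-control mice. In whole liver, fewer cells of a type and less RNA per cell cannot be told apart.

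Between OB-TUDCA and OB-control mice, none of the 31 genes passed the threshold in limma. Over all genes 0.115% were called higher and 0.186% lower. With an unadjusted p under 0.05, 6 members were higher (Fga, Fgg, Procr, Thbd, Plaur and Vwf; 19.4% of members, against 6.26% of all genes) and 4 lower (F8, F13b, Hrg and Tfpi; 12.9%, against 5.72%). The arrays of the 2 groups did not overlap for 2 members on the higher side (6.45%, against 7.26% of all genes) and 3 on the lower (9.68%, against 6.53%). The median difference of the members was 0.02, and that of all genes 0.01. Without OB-control replicate 3, 2 members were higher (5.75% of all genes) and 7 lower (6.02%) by the unadjusted p. Without OB-TUDCA replicate 2 the counts were 2 (4.99% of all genes) and 2 (4.53%), and without OB-TUDCA replicate 3, 4 members were higher (6.28%) and 2 lower (5.66%) by that p.

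Between OB-control and N-control mice, no member passed either, where 0.456% of all genes were called higher and 0.492% lower. With an unadjusted p under 0.05, 3 members were higher (F12, Plau and Vwf; 9.68%, against 6.55% of all genes) and 9 lower (F9, F10, F11, F13b, Fga, Fgb, Fgg, Plg and Kng1; 29.0%, against 5.59%). Non-overlapping arrays were found for 2 members on the higher side (6.45%, against 8.49%) and 8 on the lower (25.8%, against 6.77%). The members had a median difference of -0.10, beside 0.02 over all genes. Without OB-control replicate 2 this median was -0.24 and 14 members were lower at an unadjusted p under 0.05 (6.01% of all genes). Without OB-control replicate 3 it was -0.02 and 3 were lower (5.12%). The number of lower members was 4 without OB-control replicate 1 (4.15% of all genes), 3 when N-control replicate 1 was left out (4.2%) and 4 when N-control replicate 3 was (5.15%).

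Between OB-TUDCA and N-control mice, 6 members passed the threshold. These groups differ in both genotype and treatment, which this comparison cannot tell apart. Thbd and Vwf rose (6.45% of members, against 1.35% of all genes called higher), and F8, F11, F13b and Hrg fell (12.9%, against 1.89% called lower). At an unadjusted p under 0.05 there were 3 higher members (9.68%, against 10.4% of all genes) and 10 lower ones (32.3%, against 8.15%). Arrays did not overlap for 6 members on the higher side (19.4%, against 11.8%) and 13 on the lower (41.9%, against 8.95%). The members' median difference was -0.06, beside 0.04 over all genes. The count of 6 depended on single arrays: it was 0 without N-control replicate 2 or OB-TUDCA replicate 2, 1 without N-control replicate 1 or OB-TUDCA replicate 3, and 3 without N-control replicate 3. At an unadjusted p under 0.05, 10 of the 31 members differed without N-control replicate 2, where 16.6% of all genes did, and 9 without OB-TUDCA replicate 2, where 14.4% did.

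**Figure D1:**
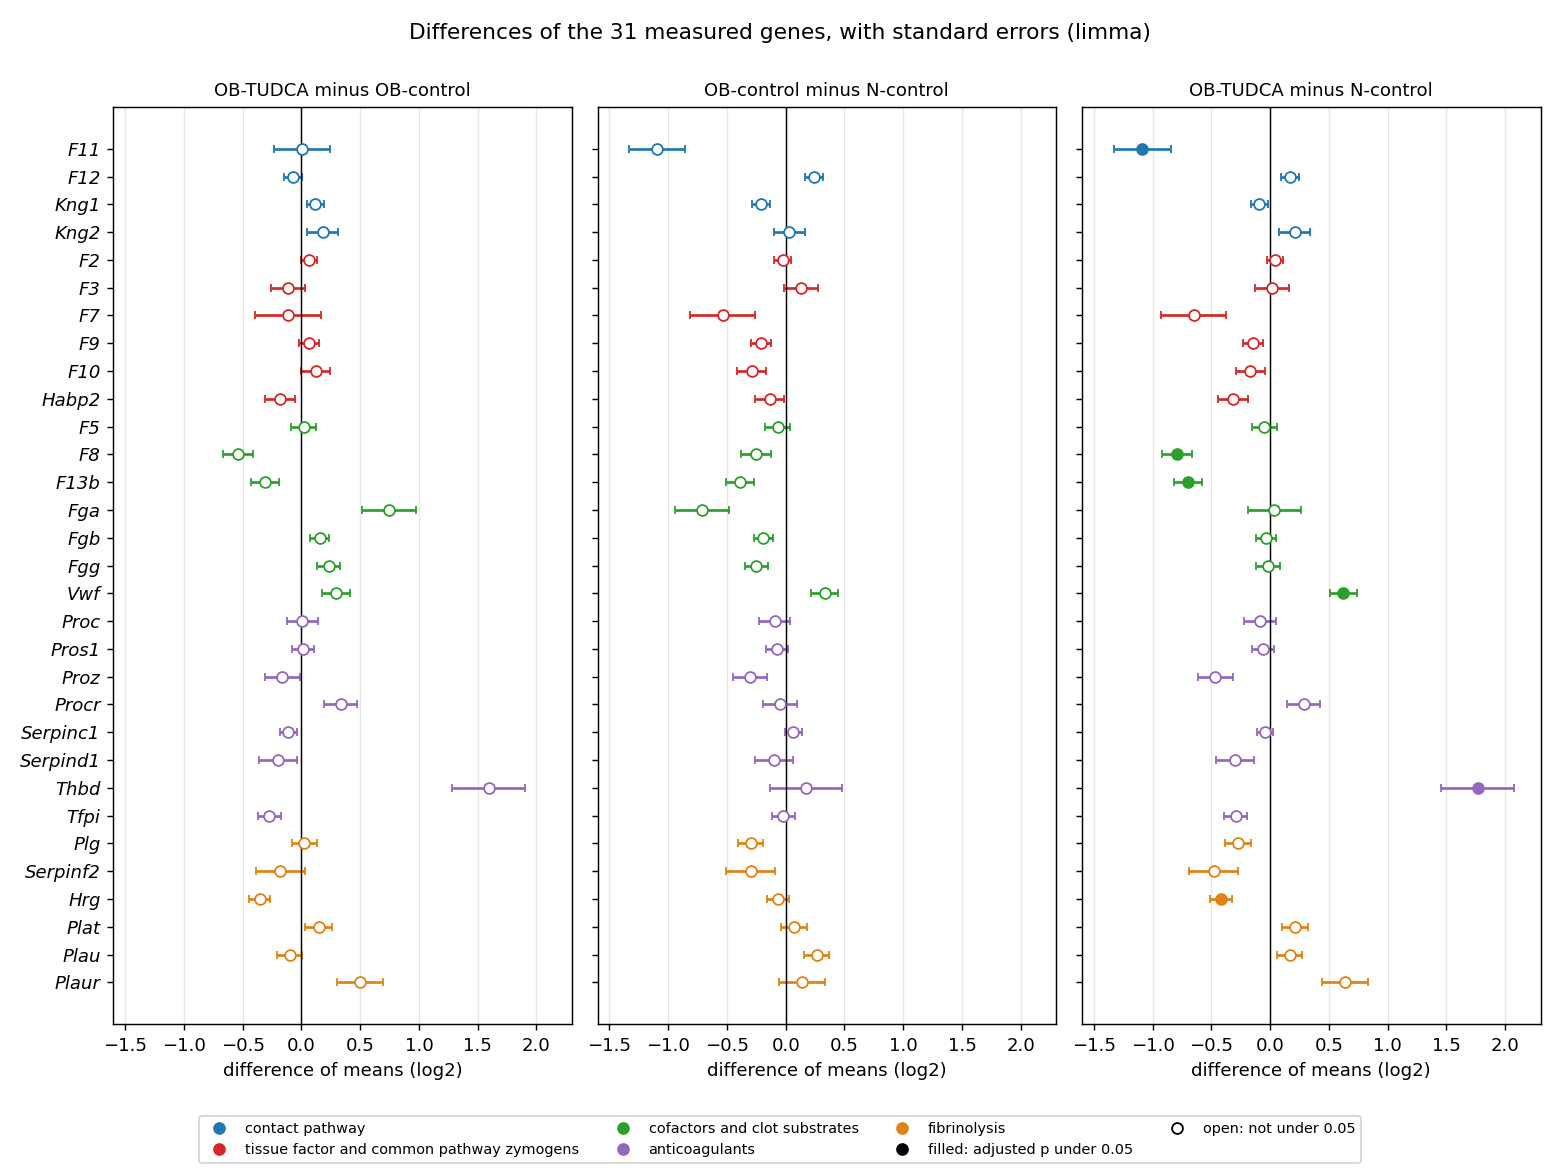
Differences of group means on the log2 scale (x axis) for the 31 measured genes (rows, coloured by role), with standard errors from limma, in 3 comparisons. Filled points, all in the comparison of OB-TUDCA with N-control mice, passed an adjusted p of 0.05: F11, F8, F13b and Hrg lie to the left of 0, and Vwf and Thbd to the right.

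In the contact pathway F11 (factor XI) had the largest difference. Its log2 signal was 7.40, 7.38 and 7.27 in OB-TUDCA mice, 6.79, 7.96 and 7.28 in OB-control mice and 8.59, 8.29 and 8.43 in N-control mice. Every ob/ob array, treated or not, lay below every lean array, and OB-control replicate 2 was the nearest to them. F11 fell by 1.09 in OB-TUDCA compared with N-control mice (standard error 0.24, adjusted p = 0.0440 in limma). The difference between OB-control and N-control mice was also -1.09 (adjusted p = 0.0843 in limma). That between OB-TUDCA and OB-control mice was 0.01, with a 95% interval from -0.53 to 0.55. The call against N-control mice was lost in limma when any array other than OB-control replicates 1 and 2 was left out (adjusted p from 0.0672 to 0.164 where it was lost, over a range from 0.00732), and with the mean of the acinar genes as a covariate (adjusted p = 0.0858). Without OB-control replicate 2, F11 passed in OB-control compared with N-control mice as well, with a difference of -1.40 (adjusted p = 0.00638 in limma, where leaving out other arrays gave up to 0.304).

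The other contact genes differed less. F12 (factor XII) was at 9.92 to 10.06 in OB-TUDCA, 10.03 to 10.06 in OB-control and 9.72 to 9.90 in N-control mice. Both groups of ob/ob mice lay above the lean mice, but neither difference passed (0.17 for OB-TUDCA and 0.24 for OB-control mice against N-control, adjusted p = 0.278 and 0.220 in limma). Mice have 2 kininogen genes next to each other on chromosome 16, beside Hrg. Kng1 was lower in OB-control mice than in lean N-control mice by its means (difference -0.21, adjusted p = 0.278 in limma), and its neighbour Kng2 had a difference of 0.03. Whether the probes tell these related transcripts apart was not tested.

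For the 3 hepatocyte-secreted genes that fell, the RefSeq promoters are shown, from 250 bases before to 50 bases after the annotated start in GRCm38.p6, on the gene's strand, to place them beside the values. The start is that of the RefSeq promoter table; the outermost start of the gene in the RefSeq gene table lies 160 bases upstream of it for F13b and 24 bases for F11, and is the same for Hrg. Of the 31 members, 24 had a promoter in the RefSeq table. Capitals mark matches, on either strand, to letters known from liver promoters. The letters TTGCNNAA are known to be bound by C/EBP factors. The hepatocyte factor HNF1 binds sites that hold GTTAAT, and FoxA factors, known for opening liver chromatin, bind TGTTTAC. Many strong promoters carry a box of TATAAA, at which transcription is set up. Interleukin 6 signalling works through STAT proteins, which bind TTCNNNGAA, and through a further element, known as type II, which holds CTGGGA.
F11, chr8:45261982-45262281, minus strand: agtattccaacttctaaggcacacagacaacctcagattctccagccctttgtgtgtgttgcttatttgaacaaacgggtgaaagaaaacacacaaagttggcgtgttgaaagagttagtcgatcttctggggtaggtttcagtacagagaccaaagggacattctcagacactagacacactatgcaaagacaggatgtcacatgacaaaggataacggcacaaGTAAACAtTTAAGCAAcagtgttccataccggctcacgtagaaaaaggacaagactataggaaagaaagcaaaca
F13b, chr1:139501457-139501756, plus strand: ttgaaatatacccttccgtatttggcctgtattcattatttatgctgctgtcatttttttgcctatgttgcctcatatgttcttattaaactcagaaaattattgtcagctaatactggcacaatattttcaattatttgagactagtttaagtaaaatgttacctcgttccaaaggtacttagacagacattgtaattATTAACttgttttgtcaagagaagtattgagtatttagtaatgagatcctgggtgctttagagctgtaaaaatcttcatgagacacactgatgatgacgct
Hrg, chr16:22950822-22951121, plus strand: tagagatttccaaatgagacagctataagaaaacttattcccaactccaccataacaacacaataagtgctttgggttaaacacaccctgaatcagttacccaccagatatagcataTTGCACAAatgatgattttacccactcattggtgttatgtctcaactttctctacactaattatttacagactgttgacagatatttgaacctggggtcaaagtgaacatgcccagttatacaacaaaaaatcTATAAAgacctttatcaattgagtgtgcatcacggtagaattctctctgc
The F11 window has a FoxA match starting at -25 and a C/EBP match at -17, and the F13b window a HNF1 match at -51. The Hrg window has a C/EBP match at -133 and the letters TATAAA at 1, which is not upstream of the start. Positions are counted from the promoter table's start as 1. C/EBP letters occur in 10.8% of all 32851 promoters in the table, and 10 of the 24 members had them in a promoter. For the HNF1 match these were 7.1% and 6, for FoxA 3.65% and 1, and for the TATA box 13.6% and 3. The STAT letters were in 8.3% of all promoters and 4 members' and CTGGGA in 31.8% and 11, none of them F11, F13b or Hrg. The percentages count promoters, and the other numbers count members with a match in any of their promoters, so their units differ. A match is a description of letters, not a bound site.

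Among the tissue factor and common pathway enzymes none passed in any comparison. F7 (factor VII) had the largest differences, with 8.93, 8.35 and 8.42 in OB-TUDCA, 8.68, 9.32 and 8.05 in OB-control and 9.33, 9.12 and 9.20 in N-control mice. All treated arrays lay below the lean ones, while the OB-control arrays spanned more than both other groups together. The difference between OB-TUDCA and N-control mice was -0.65 (standard error 0.28, adjusted p = 0.253 in limma), and that of OB-control against N-control mice -0.54 (adjusted p = 0.493 in limma). F10 (factor X), whose gene lies between F7 and Proz on chromosome 8, had a difference of -0.29 in OB-control compared with N-control mice. F9 (factor IX) had one of -0.21 (adjusted p = 0.388 for F10 and 0.360 for F9 in limma).

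F2 (prothrombin, the precursor of thrombin) varied least in this arm, with values from 11.81 to 11.98 over all 9 arrays. Its differences were 0.07 for OB-TUDCA against OB-control mice (95% interval -0.09 to 0.23) and -0.03 for OB-control against N-control mice (-0.18 to 0.13). Habp2, a plasma protease that can activate factor VII, had a difference of -0.32 in OB-TUDCA compared with N-control mice (adjusted p = 0.219 in limma). F3, which codes for tissue factor, was at 4.19 to 4.79. Array medians, taken over every probe set, were 4.50 to 4.58, and whether F3 was above background was not measured.

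The 7 vitamin K-dependent proteins (F2, F7, F9, F10, Proc, Pros1 and Proz) all had lower means in OB-control mice than in lean N-control mice. Their differences ran from -0.54 to -0.03 with a median of -0.21, beside 0.02 over all genes. Of all 19938 genes, 8562 had lower means there. Of the 9 hepatocyte markers, 8 had lower means there too (median -0.08). None of the 7 genes passed the threshold, and 2 of the 7 were lower at an unadjusted p under 0.05, as were 5.59% of all genes. Without OB-control replicate 3 there were 6 lower means of 7 with a median of -0.13, whereas leaving out OB-control replicate 2 gave 7 of 7 with a median of -0.24. In OB-TUDCA mice relative to OB-control mice, 5 means were higher and 2 lower (median 0.02). Of 9 genes for vitamin K use and factor secretion, 1 passed: Vkorc1l1, a relative of the vitamin K epoxide reductase, rose by 0.40 in OB-TUDCA compared with N-control mice (adjusted p = 0.0479 in limma). Ggcx, the carboxylase that modifies these proteins, had a difference of -0.53 in that comparison and did not pass (adjusted p = 0.0551 in limma).

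Among cofactors and clot substrates, F8 and F13b fell and Vwf rose in OB-TUDCA compared with N-control mice. F8 (factor VIII, the cofactor of factor IX, made in liver by sinusoidal endothelium) was at 7.21, 6.95 and 6.75 in OB-TUDCA, 7.68, 7.52 and 7.33 in OB-control and 7.68, 7.76 and 7.85 in N-control mice. The groups lay apart in that order, with OB-control replicate 1 close to N-control replicate 1. F8 fell by 0.79 in OB-TUDCA compared with N-control mice (standard error 0.13, adjusted p = 0.0131 in limma). Against OB-control mice the difference was -0.54 (adjusted p = 0.114 in limma). The call against N-control mice was lost in limma without N-control replicate 2 (adjusted p = 0.0520) or OB-TUDCA replicate 2 (adjusted p = 0.0598), and the left-out fits went down to 0.00825.

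F13b (the carrier subunit of factor XIII) was at 10.26, 9.83 and 9.80 in OB-TUDCA, 10.28, 10.34 and 10.19 in OB-control and 10.72, 10.59 and 10.66 in N-control mice. Both ob/ob groups lay below the lean mice, and OB-TUDCA replicate 1 lay among the OB-control arrays. F13b fell by 0.70 in OB-TUDCA compared with N-control mice (standard error 0.12, adjusted p = 0.0175 in limma). The differences of OB-TUDCA against OB-control and of OB-control against N-control mice were -0.31 and -0.39 (adjusted p = 0.344 and 0.212 in limma). The call was lost in limma without N-control replicate 1, N-control replicate 2, replicate 2 or 3 of OB-TUDCA mice (adjusted p from 0.0525 to 0.0801, and down to 0.00275 in the other left-out fits). It was also lost when only the arrays of the groups compared were fitted (adjusted p = 0.0637 in limma).

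Vwf (von Willebrand factor, which carries factor VIII and tethers platelets) was at 6.36, 6.64 and 6.54 in OB-TUDCA, 6.44, 6.02 and 6.20 in OB-control and 5.97, 5.91 and 5.80 in N-control mice. All ob/ob arrays lay above the lean ones, and the treated and untreated ob/ob arrays overlapped. Vwf rose by 0.62 in OB-TUDCA compared with N-control mice (standard error 0.12, adjusted p = 0.0238 in limma). Its differences in the other comparisons were 0.29 for OB-TUDCA against OB-control and 0.33 for OB-control against N-control mice (adjusted p = 0.357 and 0.288 in limma). The call was lost in limma without any one of the N-control arrays, replicate 2 or 3 of OB-TUDCA mice (adjusted p from 0.0701 to 0.0976, and down to 0.0190 in the other left-out fits), and with the mean of the acinar genes as a covariate (adjusted p = 0.0678). F5 (factor V) was at 10.41 to 10.75 over all arrays, with differences of at most 0.07 in size.

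The 3 fibrinogen chains are coded by neighbouring genes on chromosome 3 and assemble into a single protein. Fga (the alpha chain) was at 9.44, 9.63 and 9.48 in OB-TUDCA, 8.62, 9.22 and 8.46 in OB-control and 9.27, 9.23 and 9.95 in N-control mice. The OB-control arrays lay below both other groups, with replicate 2 at the edge of the N-control range. The differences were 0.75 in OB-TUDCA compared with OB-control and -0.71 in OB-control compared with N-control mice (standard error 0.23 each, adjusted p = 0.213 and 0.225 in limma). The 2 probe sets of Fga gave 0.52 and 0.97 in OB-TUDCA mice relative to OB-control mice, so they had the same direction but not the same size.

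Fgb (the beta chain) averaged 12.53 ± 0.03, 12.38 ± 0.13 and 12.57 ± 0.04, and Fgg (the gamma chain) 12.53 ± 0.09, 12.30 ± 0.17 and 12.55 ± 0.07 in OB-TUDCA, OB-control and N-control mice (SD, n = 3 each). All 3 chains thus had their lowest mean in OB-control mice, and none of the differences passed. All 3 were lower in OB-control mice than in lean N-control mice at an unadjusted p under 0.05 (5.59% of all genes were), but without OB-control replicate 3 none was. Both contrasts use the same OB-control arrays. In OB-TUDCA compared with N-control mice the differences were 0.04 for Fga (95% interval -0.48 to 0.55), -0.03 for Fgb (-0.22 to 0.15) and -0.02 for Fgg (-0.24 to 0.21).

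Fibrinogen is an acute phase protein, made in larger amounts when interleukin 6 acts on hepatocytes. Of 20 measured acute phase and interleukin 6 signalling genes, 16 had higher means in OB-TUDCA mice than in OB-control mice, with a median difference of 0.52 beside 0.01 over all genes. At an unadjusted p under 0.05, 10 of the 20 were higher (6.26% of all genes) and 1 was lower (5.72%). The threshold was passed by 1: Il6ra, the interleukin 6 receptor, rose by 1.02 (adjusted p = 0.0262 in limma). In OB-TUDCA compared with N-control mice Lcn2, Hp, Lbp, Il6ra and Orm2 rose and Crp fell. Lcn2 (lipocalin 2) rose by 3.97 there (adjusted p = 0.00342 in limma), while no fibrinogen chain had a difference beyond 0.04 in size. The mean of the list was 9.05, 9.43 and 9.86 on the OB-TUDCA arrays, 8.69 to 9.16 in OB-control and 8.56 to 8.76 in N-control mice. In OB-control compared with N-control mice 9 of the 20 genes had higher means and 11 lower ones (median difference -0.11). At an unadjusted p under 0.05, 4 were higher there (6.55% of all genes) and 5 lower (5.59%). These differences ran from -0.63 (Cebpd) to 2.33 (Lcn2), with Orm2 at 2.09 and Saa2 at 1.94, and none passed the threshold. Whether the acute phase response has a part in the fibrinogen values was not tested. Among 11 liver transcription factors, Foxa3 rose by 1.35 in OB-TUDCA mice relative to OB-control mice and Hnf4a by 0.58 in OB-TUDCA compared with N-control mice (adjusted p = 0.0323 and 0.0451 in limma).

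Among the anticoagulants Thbd stood apart. Thbd (thrombomodulin, which turns thrombin into an activator of protein C) was at 6.25, 7.51 and 7.48 in OB-TUDCA, 5.51, 5.17 and 5.78 in OB-control and 5.14, 5.33 and 5.47 in N-control mice. Every treated array lay above all 6 untreated ones, and OB-TUDCA replicate 1 was the nearest to them. Thbd rose by 1.77 in OB-TUDCA compared with N-control mice, 3.40-fold (standard error 0.31, adjusted p = 0.0182 in limma). Against OB-control mice the difference was 1.59, 3.02-fold, and did not pass (adjusted p = 0.0719 in limma). It passed there without OB-TUDCA replicate 1 (2.01, adjusted p = 0.0120 in limma), where leaving out other arrays gave up to 0.233. The call against N-control mice was lost in limma without N-control replicate 1, N-control replicate 2, replicate 2 or 3 of OB-TUDCA mice (adjusted p from 0.0612 to 0.0832, and down to 0.00144 in the other left-out fits). It was also lost when only the arrays of the groups compared were fitted (adjusted p = 0.0651 in limma) and with the mean of the acinar genes as a covariate (adjusted p = 0.0549 in limma).

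**Figure D2:**
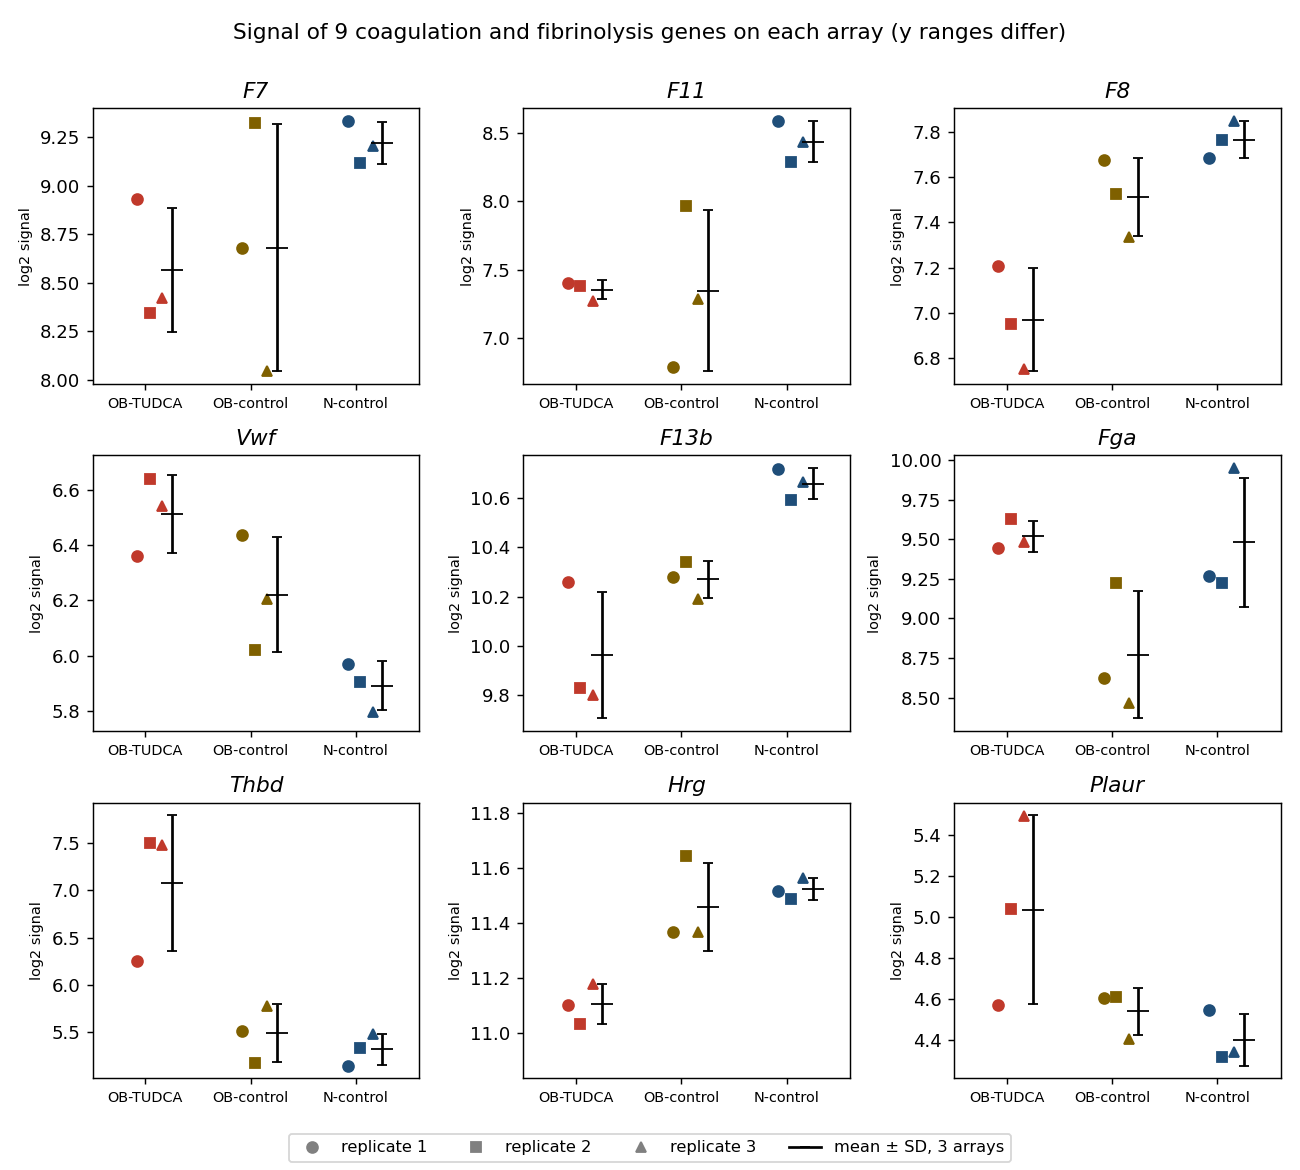
Log2 signal (y axes, with different ranges) of 9 genes on each array, by group, with symbols for replicates and bars for mean and SD of 3 arrays. Thbd lies between 6.25 and 7.51 in OB-TUDCA mice, above all other arrays, F8 and Hrg are lowest in OB-TUDCA mice, and F11 and F13b are highest in N-control mice.

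The hepatocyte-made anticoagulants differed less. Serpinc1 (antithrombin) was at 11.53 to 11.65 in OB-TUDCA, 11.65 to 11.77 in OB-control and 11.63 to 11.65 in N-control mice, with differences of at most 0.11 in size. Proc (protein C) and Pros1 (its cofactor protein S) had differences of at most 0.10 in size. Proz (protein Z, a cofactor for the inhibition of factor X) had a difference of -0.46 in OB-TUDCA compared with N-control mice, and Serpind1 (heparin cofactor II) one of -0.30 (adjusted p = 0.132 and 0.378 in limma). In both, all treated arrays lay below the lean ones.

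Procr (the endothelial protein C receptor) and Tfpi (tissue factor pathway inhibitor) are made mainly outside hepatocytes. Procr had a difference of 0.33 in OB-TUDCA mice relative to OB-control mice and Tfpi one of -0.27 (adjusted p = 0.384 and 0.302 in limma). The treated arrays of Tfpi, at 5.62 to 5.90, lay below those of OB-control mice, at 5.94 to 6.15, and of N-control mice, at 5.94 to 6.08. Of 23 other measured genes of hemostasis, 1 passed in any comparison: Tfpi2, which codes for a protease inhibitor related to Tfpi, fell by 0.57 in OB-TUDCA compared with N-control mice (adjusted p = 0.0188 in limma).

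In fibrinolysis, Hrg fell. Hrg (histidine-rich glycoprotein, a hepatocyte protein that binds plasminogen and heparin) was at 11.10, 11.03 and 11.18 in OB-TUDCA, 11.37, 11.64 and 11.37 in OB-control and 11.52, 11.49 and 11.57 in N-control mice. The treated arrays lay below all 6 others, which overlapped with each other. Hrg fell by 0.42 in OB-TUDCA compared with N-control mice (standard error 0.09, adjusted p = 0.0420 in limma), and its difference from OB-control mice was -0.35 (adjusted p = 0.142 in limma). The call remained in limma when OB-control replicate 2 was left out (adjusted p = 0.0202) and was lost without any other array (adjusted p from 0.0524 to 0.142). It was lost too after quantile normalization once more (difference -0.31, adjusted p = 0.0778 in limma), after subtraction of array medians (adjusted p = 0.0513) and with the mean of the acinar genes as a covariate (adjusted p = 0.0924).

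Plaur (the urokinase receptor, found on myeloid and activated cells) was at 4.57, 5.04 and 5.49 in OB-TUDCA, 4.60, 4.61 and 4.40 in OB-control and 4.55, 4.32 and 4.34 in N-control mice. OB-TUDCA replicate 1 lay among the untreated arrays and the other 2 above them. The difference between OB-TUDCA and N-control mice was 0.63 and did not pass (standard error 0.20, adjusted p = 0.125 in limma). It passed without OB-TUDCA replicate 1 (0.87, adjusted p = 0.0194 in limma), where leaving out other arrays gave up to 0.275. Plg (plasminogen, the precursor of plasmin) had differences of -0.27 for OB-TUDCA and -0.30 for OB-control against N-control mice (adjusted p = 0.218 and 0.297 in limma), and Serpinf2 (alpha-2-antiplasmin) of -0.48 and -0.30 (adjusted p = 0.258 and 0.627 in limma). Plat and Plau, the plasminogen activators, had signals of 3.71 to 4.29 and 4.17 to 4.75, near the array medians, and differences of at most 0.26 in size.

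OB-TUDCA replicate 1 was also the treated array nearest to the untreated ones in some other measures, but not in all. The mean of 10 Kupffer cell and macrophage markers was 6.42 there and 6.85 and 6.90 on the other OB-TUDCA arrays, against 6.32 to 6.63 in OB-control and 6.38 to 6.57 in N-control mice. None of these markers, nor of 6 platelet and 6 neutrophil markers, passed in any comparison. The sinusoidal marker Kdr was at 7.68, 6.76 and 6.77 in OB-TUDCA mice, against 7.95 to 8.05 in OB-control and 8.09 to 8.36 in N-control mice. Replicate 3 was the nearest for the mean of 7 markers of endothelium in general, at 6.23, 6.28 and 6.11 in OB-TUDCA mice. That mean was 6.02 to 6.21 in OB-control and 6.06 to 6.21 in N-control mice. The part of these differences in the values of Thbd and Plaur was not tested.

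Endothelial markers were measured beside F8, Vwf and Thbd. Of 9 markers of liver sinusoidal endothelium, 8 had lower means in OB-TUDCA than in N-control mice, with a median difference of -0.45. Kdr, Dnase1l3, Fcgr2b and Oit3 fell, by 0.65 (Oit3) to 1.17 (Kdr), and Lyve1, which lymphatic vessels express too, rose by 2.44 (adjusted p from 0.00842 to 0.0341 in limma). Of 7 markers of endothelium in general none passed, and the median difference was -0.04. The means of Pecam1, Cdh5 and Tie1 were higher in OB-TUDCA mice (differences of 0.32, 0.49 and 0.44), and those of Tek, Emcn, Sox17 and Cldn5 lower (-0.58, -0.10, -0.08 and -0.04). At an unadjusted p under 0.05, those 3 were higher (10.4% of all genes) and 1, Tek, was lower (8.15%). Arrays did not overlap for the 3 higher ones (11.8% of all genes) and overlapped for the lower ones. The sinusoidal list averaged 7.03 to 7.22 in OB-TUDCA, 7.04 to 7.30 in OB-control and 7.29 to 7.42 in N-control mice, and the general list 6.11 to 6.28, 6.02 to 6.21 and 6.06 to 6.21. By sign alone, F8 had the direction of 8 of the 9 sinusoidal markers and of 4 of the 7 general ones. Vwf and Thbd had that of 1 of the 9 and 3 of the 7. The part of endothelial cell numbers in these values was not tested.

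**Figure D3:**
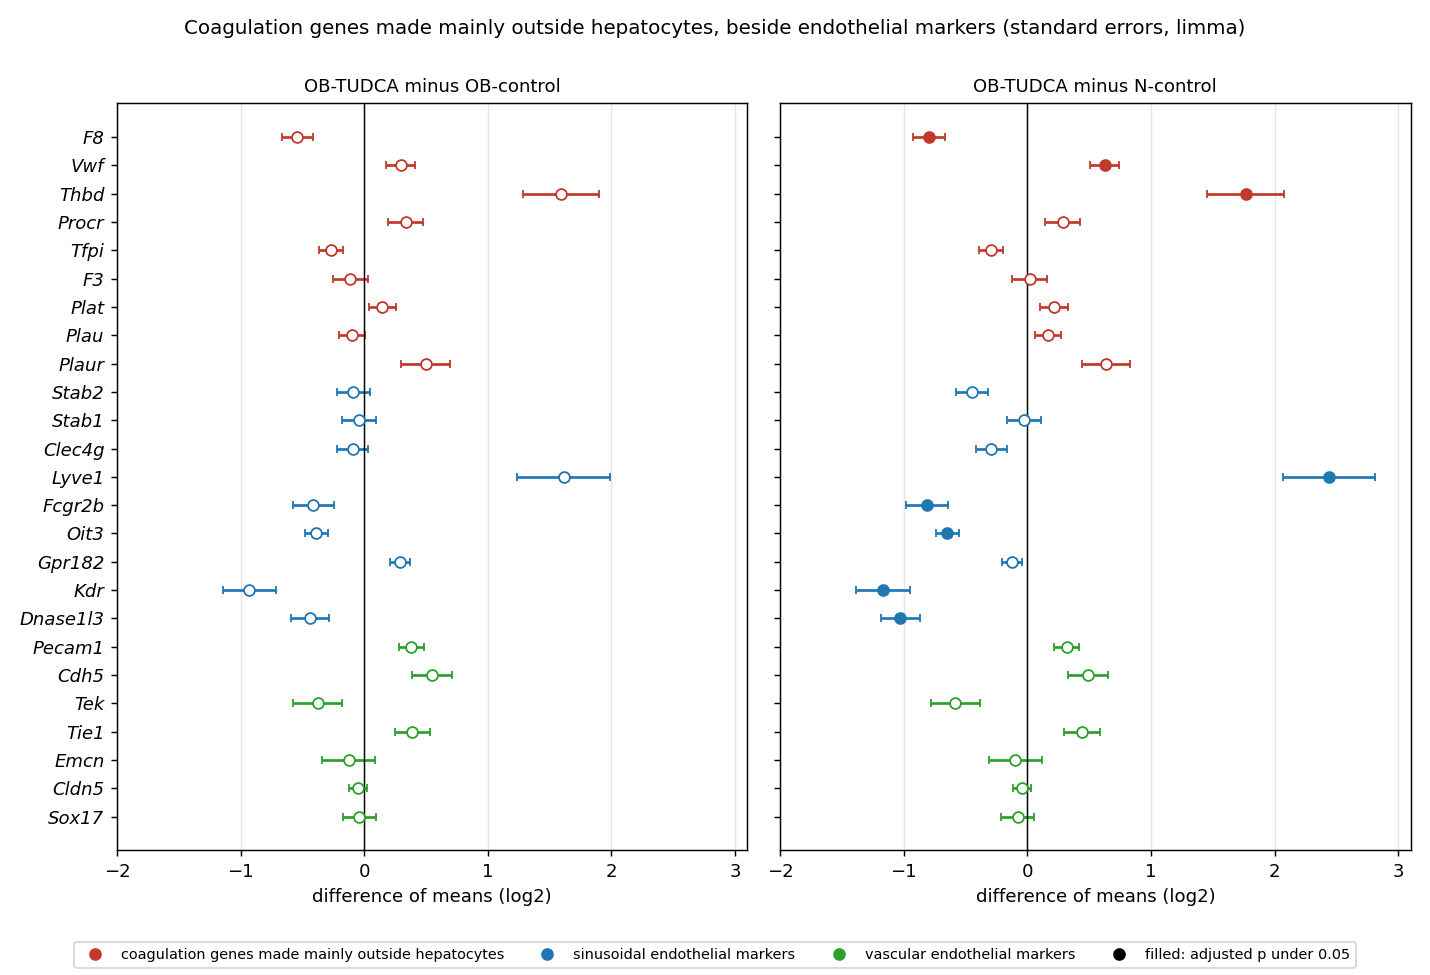
Differences of group means on the log2 scale (x axis), with standard errors from limma, of OB-TUDCA against OB-control and N-control mice, for 9 coagulation genes made mainly outside hepatocytes and for 9 sinusoidal and 7 general vascular endothelial markers. Filled points passed an adjusted p of 0.05: against N-control mice these are F8, Kdr, Dnase1l3, Fcgr2b and Oit3 on the lower side and Vwf, Thbd and Lyve1 on the higher.

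The 22 measured hepatocyte-secreted members differed most between the arrays of OB-control mice. The median SD over these genes was 0.08 in OB-TUDCA, 0.19 in OB-control and 0.06 in N-control mice (3 arrays each), whereas over all genes it was 0.12, 0.12 and 0.11. In OB-control mice, replicate 2 was the highest of the 3 arrays for 21 of the 22 genes (F9 was the exception), and replicate 3 the lowest for 17. For 8 genes OB-control replicate 2 was the highest of all 9 arrays, and for 14 OB-control replicate 3 was the lowest of all 9. Serpinf2 shows this spread, with 11.09, 11.64 and 10.68 on the OB-control arrays, against 11.41 to 11.45 in N-control mice. It was chosen as an example after its values were seen. Their mean log2 signal was 10.62, 10.52 and 10.54 in OB-TUDCA mice, 10.49, 10.80 and 10.38 in OB-control mice and 10.79, 10.72 and 10.84 in N-control mice. OB-control replicate 2 thus lay within the lean range, and the other OB-control arrays below all treated ones. Means of 2 other lists were also highest on OB-control replicate 2, but not all their genes were. The 9 hepatocyte markers averaged 12.43, 12.56 and 12.43 on the OB-control arrays, and the 11 liver transcription factors 7.96, 8.11 and 7.89. Among the markers, Tat was highest on replicate 2 (12.39, 12.82 and 12.43), while Alb was lowest there (13.38, 13.32 and 13.43). The transcription factor Nr0b2 varied widely, at 7.05, 8.17 and 6.03. The 9 sinusoidal markers averaged lowest on replicate 2, at 7.22, 7.04 and 7.30.

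**Figure D4:**
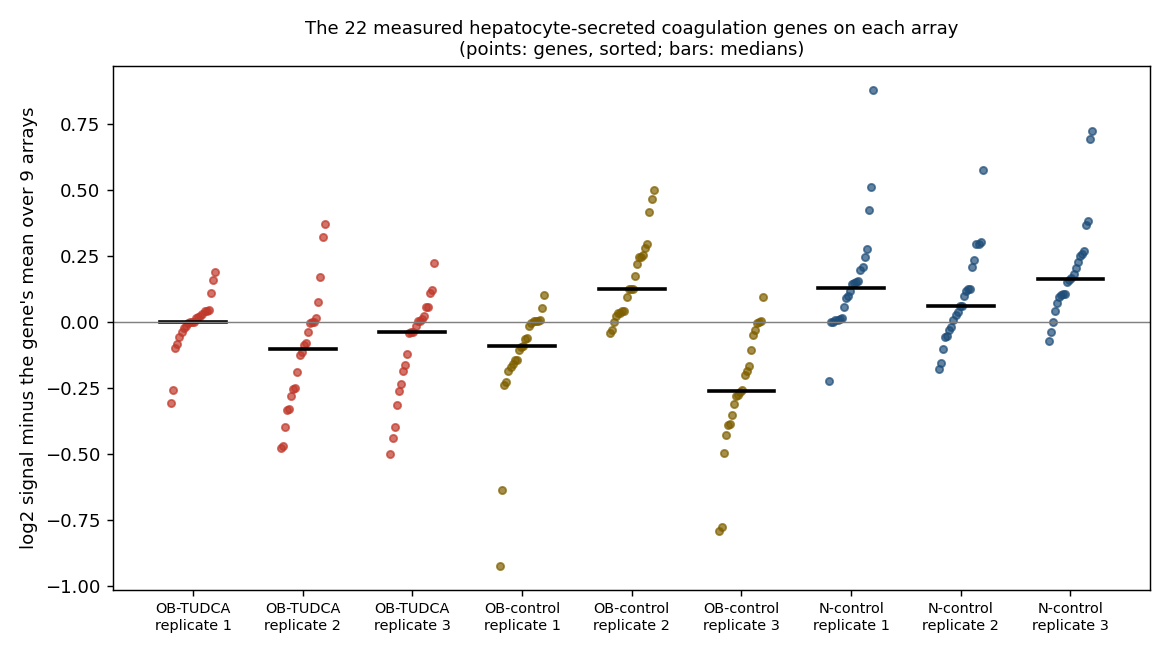
Log2 signal of 22 hepatocyte-secreted coagulation genes minus each gene's mean over 9 arrays (y axis), by array (x axis), with a bar at the median. The median is 0.12 in OB-control replicate 2 and -0.26 in OB-control replicate 3, and lies between -0.10 and 0.00 in OB-TUDCA and between 0.06 and 0.16 in N-control mice.

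Of these 22 genes, 18 had lower means in OB-TUDCA than in N-control mice (median difference -0.12), and 19 had lower means in OB-control mice than in lean N-control mice (median -0.20). Over all 19938 genes, 8033 and 8562 had lower means in these comparisons (medians 0.04 and 0.02). F12, Kng2 and Serpinc1 were the exceptions between OB-control and N-control mice. In OB-TUDCA mice relative to OB-control mice 13 were higher and 9 lower by their means (median 0.01), which became 15 and 7 when OB-control replicate 2 was left out, or 8 and 14 when OB-control replicate 3 was. Without N-control replicate 2, 19 were lower in OB-TUDCA and 20 in OB-control mice than in lean N-control mice. The direction between treated and untreated ob/ob mice thus turned on which OB-control array was left out. The 9 hepatocyte markers had mostly lower means than in N-control mice too, 7 of them in OB-TUDCA and 8 in OB-control mice. Their median differences were -0.09 and -0.08, against -0.12 and -0.20 for the 22 genes. At an unadjusted p under 0.05, 2 of the 9 markers were lower in each comparison, and 8 and 9 of the 22 genes. Of all genes 8.15% and 5.59% were. Lower means were thus found outside the coagulation genes too, but with smaller medians.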

How the data were processed

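Liver RNA had been hybridized to 9 Affymetrix Mouse Gene 1.0 ST arrays, 3 per group. The authors deposited log2 signals per probe set, made with RMA in Affymetrix Expression Console, with no version in the sources used here. RMA subtracts background, makes the distributions of the arrays alike and summarizes probes. The deposited values were used with no further normalization. Signal over background was not measured, and the number of arrays limits the precision.

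Probe sets with exactly 1 gene symbol in the platform annotation (21789 of 35556) were averaged per symbol, as the study's methods state, which gave 19938 genes. Left out were 1621 probe sets that carry several symbols and 12146 that carry none. No filter on signal was used. All 9 arrays were fitted with limma 3.58.1 in R 4.3.3 with a mean for each of the 3 groups (degrees of freedom: 6 residual, 3.33 prior), with empirical Bayes estimates of the spread, two-sided, and Benjamini-Hochberg adjustment over all genes. Intervals are 95% limits from the same fit. The fit was tested on simulated data. Tables were handled in R with the data.table package, version 1.17.8, sequences with Python 3.11.15 and figures with matplotlib 3.10.9.

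The members, the lists, the markers and the motifs were chosen with earlier results of these data known. Values of every array are given for members that passed the threshold, for those with a difference of at least 0.5 whose arrays did not overlap, and for the member with the largest difference where a role had no such gene. Promoters are from RefSeq (GRCm38.p6), whose gene table was used for neighbouring genes. No protein sequences were used here. Alternatives were a filter on low signal, quantile normalization once more, subtraction of array medians, a trended robust prior, array weights, only the groups compared, each probe set on its own, the pancreatic acinar mean as a covariate, a replicate block, fold limits alone, and each array left out in turn. Counts without single doubted arrays were added after the data had been seen.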

Additional observations from a re-analysis of the deposited data

How the results depend on the processing

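Of the 3 counts of members past the threshold, that for OB-TUDCA against OB-control mice was 0, and 1 (Thbd) after leaving out the third of genes lowest in signal or with fold limits of 2.3 (higher) and 1.5 (lower) and no test. Leaving out single arrays gave 0 to 1. For OB-control against N-control mice the count was 0, 1 (F11) with array weights, 2 (F11 and Fga) with the fold limits, and 0 to 1 with single arrays left out. For OB-TUDCA against N-control mice it was 6, 2 (F8 and F13b) when the mean of the pancreatic acinar genes was a covariate, and 0 to 6 with single arrays left out. It was 5 (without Hrg) after quantile normalization once more or subtraction of array medians, 4 (without F13b and Thbd) with only the groups compared, and 5 with the fold limits (with F7, without Hrg and Vwf). Proz joined without OB-control replicate 3 and Plaur without OB-TUDCA replicate 1. The members' median difference ranged from -0.049 to 0.12, from -0.24 to -0.018 and from -0.11 to -0.059 in these comparisons with single arrays left out. No difference that passed the threshold changed sign in any alternative. Differences that passed in neither fit changed sign in 49 of 1578 values, up to 0.272 in size. Fewer arrays also mean fewer degrees of freedom, and the cause of a lost call was not tested. Nothing in the labels says that replicate numbers pair the arrays. Deviations correlated above 0.1 in 4 of 9 pairs with the same number (r from -0.08 to 0.21) and in 1 of 18 with other numbers (r from -0.30 to 0.23). Of 9 arrays, 7 correlated best with their own number, OB-TUDCA replicate 2 by only 0.0859 against 0.0856. This is a hint from the data only, and how many arrays would do so without pairing was not tested. With the replicate number as a block the counts were 0, 0 and 4 (F8, F13b, Thbd and Vwf), and F11 (adjusted p = 0.0556 in limma) and Hrg (0.0616) no longer passed. With 3 arrays per group and no measure of background, signals near the array medians (F3, Procr, Plat, Plau and Plaur) cannot show whether the gene was expressed.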
